A study of Homo sapiens with 6 samples.

Results

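Transcripts named as antisense, as LINC or by a genomic clone, together with NEAT1, made up 49 of the 453 features of the authors' table of GDF15-treated against untreated LX2 cells. Within that table they were chosen by name. The rule took NEAT1, names starting with LINC and clone names such as AL645608.8. It also took names ending in -AS with or without a number, in -IT with a number or in -DT. It gave 11 antisense-named transcripts, 7 LINC transcripts, 30 clone-named transcripts and NEAT1, and no -IT or -DT name. LX2 is an established line of human hepatic stellate cells, the liver cells that deposit matrix when activated, and GDF15 is a secreted stress-induced cytokine. The treated group was LX2 exposed to recombinant GDF15 at 1 ug/ml during 24 h, and the other group was LX2 with no treatment. Each group had 3 libraries, made after poly(A) selection. Nothing in the labels tells if they were grown as separate cultures, so the spread between them may be technical.

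All 453 features, 452 genes and 1 spike-in RNA, were below an unadjusted p of 0.05 in the authors' deposited table, so the members were selected on the very difference described here. Values are therefore a description, no test was added, and features with a larger p were not analysed here. In the authors' deposited table all 49 members shared an adjusted p of 0.911, so 0 of 49 passed an adjusted p of 0.05, against 0.0% of all listed features. Closest to the edge of the listing were WDFY3-AS2 and AL031846.2, whose unadjusted p in the authors' deposited table was 0.0489 and 0.047. AL645608.8 had the lowest, 0.000531 in the authors' deposited table. The samples' cell type field says epithelial, but the study design names stellate cells. Of 15 stellate markers PDGFRA was listed and of 12 epithelial markers CLDN1, both higher with GDF15. CLDN1 had 306, 65.2 and 55.4 normalized counts in the treated libraries and 39.4, 33.2 and 45.1 in the others, with GDF15 replicate 1 well above the rest. None of 10 leukocyte, endothelial and melanocyte markers was listed, and the unlisted markers were not analysed here.

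By the annotation of GENCODE release 29 (GRCh38), the names covered more than long non-coding RNA. All 49 identifiers were found there. Of the 49, 42 were typed as non-coding RNA, namely 17 antisense, 16 intergenic (lincRNA), 3 processed transcripts, 1 sense-intronic and 5 still awaiting experimental evidence (TEC). A further 5 clone-named members were pseudogenes and 2, FP565260.3 and AL121845.3, were typed as protein-coding. For 10 members the current symbol differed from the deposited name. Among these, AC084033.3 is now GIHCG, AC007388.1 is MAP4K3-DT, AC021054.1 is NINJ2-AS1 and AC138207.2 is MIR4733HG. The identifier deposited as HIF1A-AS2 now carries the symbol HIF1A-AS3, and it is called HIF1A-AS2 here as in the table. AL645608.8 is named AL645608.7 in GENCODE and AC241585.2 is named LINC01145, and both were followed by identifier.

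Long non-coding RNAs are transcribed, capped and often spliced like messenger RNA but carry no long reading frame. Antisense RNAs run across a gene on its other strand, and some start at the same promoter and run away from it. Several are known to act on the gene they cover, by blocking its transcription, pairing with its messenger RNA or bringing chromatin regulators to it, and many have no known action. NEAT1 is the scaffold of paraspeckles, nuclear bodies that hold back RNAs and RNA-binding proteins, and it is induced by several kinds of cell stress.

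NEAT1 has a short form with a poly(A) tail and a long form whose end is a triple helix in place of a tail, so oligo(dT) beads can hold the long form only through A-rich stretches inside it. GENCODE gives 8 NEAT1 transcripts, the longest of 22743 bases. The table gives 1 value a gene, so the short and the long form cannot be told apart.

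RefSeq promoter windows (GRCh38.p14, 250 bases before to 50 after the start) were found for 16 members by current symbol, 7 higher and 9 lower. Of those that start within 100 bases of the GENCODE start and hold no annotated UTR, 3 are printed, 1 higher member and 2 lower ones, to show how unlike these starts are. Capitals mark ACGTG, a form of the core that hypoxia-inducible factors bind, or its reverse complement CACGT, searched on both strands. The other form, GCGTG, was not searched and is not marked.
HIF1A-AS2 promoter, chr14:61751048-61751347, minus strand: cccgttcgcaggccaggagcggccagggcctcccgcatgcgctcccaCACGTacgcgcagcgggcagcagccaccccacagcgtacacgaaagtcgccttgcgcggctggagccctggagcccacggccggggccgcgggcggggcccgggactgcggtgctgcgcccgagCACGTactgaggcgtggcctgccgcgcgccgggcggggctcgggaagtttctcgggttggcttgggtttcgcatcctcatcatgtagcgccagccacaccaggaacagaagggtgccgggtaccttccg
LMO7-AS1 promoter, chr13:75635945-75636244, minus strand: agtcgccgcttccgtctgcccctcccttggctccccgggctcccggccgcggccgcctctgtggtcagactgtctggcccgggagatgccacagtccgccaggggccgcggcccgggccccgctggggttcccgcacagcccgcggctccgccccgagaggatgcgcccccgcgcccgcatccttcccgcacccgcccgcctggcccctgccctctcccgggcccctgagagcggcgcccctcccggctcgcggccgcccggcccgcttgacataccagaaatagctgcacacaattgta
LINC02104 promoter, chr5:39520181-39520480, plus strand: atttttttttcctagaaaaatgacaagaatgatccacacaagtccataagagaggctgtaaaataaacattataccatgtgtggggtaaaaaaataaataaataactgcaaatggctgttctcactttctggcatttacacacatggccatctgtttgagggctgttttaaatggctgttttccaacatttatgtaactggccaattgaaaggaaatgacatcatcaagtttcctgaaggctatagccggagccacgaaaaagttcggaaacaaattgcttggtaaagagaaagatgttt
The HIF1A-AS2 window held 2 matches, and the other 2 windows held none. GC content was 72.3% for HIF1A-AS2, 76% for LMO7-AS1 and 36% for LINC02104, and the median over all 35116 windows was 58.7%. Of the 16 windows, 2 of 7 higher and 1 of 9 lower members held the motif, as did 21.4% of all 35116 windows. Of the 16, 8 start within 100 bases of the GENCODE start. The start of the lower match, LINC00513, is 59744 bases from its GENCODE start. That of ZNF529-AS1, 1 of the 2 higher matches, is 279 bases away. A match is a run of letters, not a site of binding.

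Of the 49 members, 30 were listed as higher with GDF15 and 19 as lower, and 60.5% and 39.5% of all 453 features were listed that way. The 3 GDF15 libraries lay wholly above the 3 untreated ones for 24 of the 49 members, against 37.3% of all features, and wholly below them for 15, against 30.5%. In either direction 39 of the 49 members had groups apart, against 67.8% of all features. A ratio of means of at least 2-fold was found upward for 12 of the 49 members and 14.1% of all features, and downward for 2 of the 49, AC116021.1 and AC087477.2, and 3.75% of all features. The median log2 ratio of means was 0.95 for higher members and -0.77 for lower ones, and 0.70 and -0.59 over all listed features. Members were low in level, with a median over 6 libraries of 32.7 normalized counts against 229 for all listed features. Among listed features outside the rule with a mean under 50 normalized counts, the medians were 1.18 and -0.91, and for the 30 members under that level they were 1.03 and -0.89. The medians of low members were not larger in size than those of other low features, and this was not tested.

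**Figure D1:**
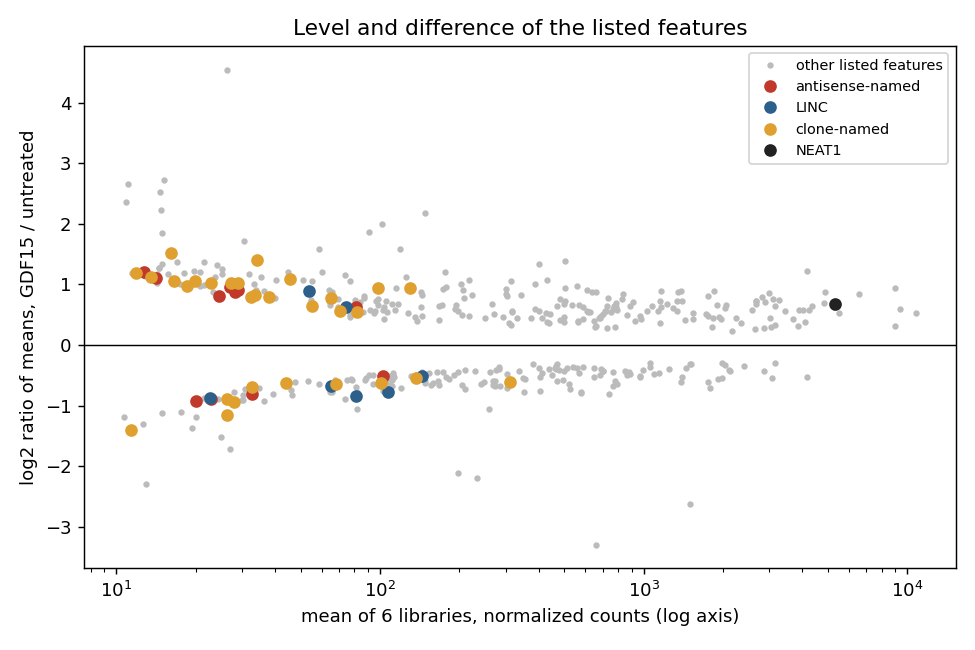
Each point is a listed feature, by its mean normalized count over 6 libraries (log axis) and its log2 ratio of group means, GDF15 over untreated. Apart from NEAT1, members sit at means from 11.4 to 310.3, and their ratios lie between -1.41 and 1.52.

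LINC members were 2 higher and 5 lower. Antisense-named members were 7 higher and 4 lower, and clone-named members 20 higher and 10 lower. By GENCODE type, the 17 antisense genes were 10 higher and 7 lower, the 16 intergenic ones 8 higher and 8 lower, and all 5 pseudogenes and both protein-coding genes were higher. Of 12 members with a single exon, 9 were higher and 3 lower. These splits are counts within a selected list, and no difference between the groups was tested.

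**Figure D2:**
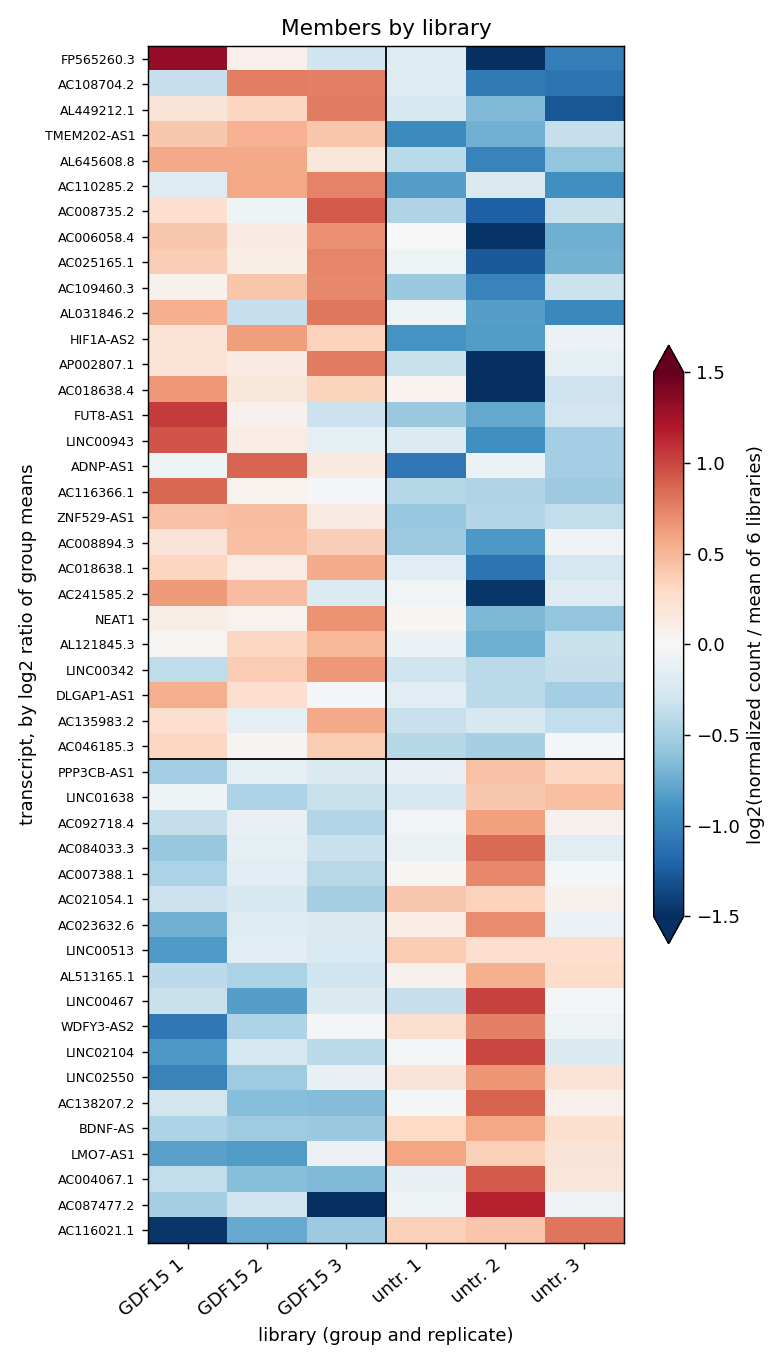
Rows are 47 of the members by log2 ratio of group means, and columns are the 3 GDF15 and 3 untreated (untr.) libraries. Colour is log2 of the normalized count over the member's mean of 6 libraries, and untreated replicate 2 holds most of the extreme untreated values: it was lowest for 17 of 28 higher and highest for 14 of 19 lower members shown.

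NEAT1 (ENSG00000245532, chromosome 11, 65422774 to 65445540, plus strand) had the highest level of the 49 members. It had 5663, 5498 and 8489 normalized counts in the treated libraries and 5419.5, 3332 and 3525 in the untreated ones, each given in replicate order here and for every gene that follows. The groups did not overlap, but untreated replicate 1 lay just under GDF15 replicate 2, and GDF15 replicate 3 stood above all others. In bulk RNA, fewer cells that make a transcript and less of it per cell cannot be told apart. The treated mean was 6550.02 ± 1681 and the untreated mean 4092 ± 1154 (SD, n = 3), 1.6-fold apart. In the authors' deposited table its unadjusted p was 0.00793. On the log2 scale the means differed by 0.68, by 0.45 when GDF15 replicate 3 was left out and by 0.93 when untreated replicate 1 was. Per kilobase of exon NEAT1 had 234 normalized counts, AC084033.3 236 and the next, AC092718.4, 191. For NEAT1 this divides by 22767 exonic bases, those of its short and long forms together. Its value would be higher if most reads came from the short form, so its rank on this scale is uncertain. Of 16 paraspeckle genes, NEAT1 and proteins such as NONO and SFPQ, NEAT1 alone was listed, and the others were not analysed here.

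Among the 7 antisense-named members listed as higher was HIF1A-AS2, which runs against HIF1A, the gene of the oxygen-regulated subunit of a hypoxia factor. HIF1A-AS2 (ENSG00000258667, chromosome 14, 61715558 to 61751097, minus strand) had 31, 41.6 and 34.4 normalized counts in the GDF15 libraries and 14.5, 15.2 and 25.3 in the untreated ones. All 3 GDF15 values lay above all untreated ones. Means were 35.7 ± 5.39 and 18.3 ± 6.07 (SD, n = 3), 1.94-fold apart, with log2 ratios from 0.82 to 1.26 when single libraries were left out. GENCODE gives it no exonic base in common with another gene, as its exons lie outside those of HIF1A.

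DLGAP1-AS1 (chromosome 18, 3593732 to 3598352, plus strand), inside the gene of a synaptic scaffold protein, had 118, 96.6 and 79.8 against 72.6, 61.6 and 57 normalized counts. Its groups did not overlap, and replicate 1 was the highest library of each. It shared no exonic base with DLGAP1, and its means were 98.1 ± 19.1 and 63.7 ± 8.0 (SD, n = 3), a 1.54-fold difference. TMEM202-AS1, which starts beside ARIH1, a ubiquitin ligase gene, had 18.6, 20.2 and 18.8 against 7.26, 8.53 and 11.1. The 3 GDF15 values were nearly equal and well above the untreated ones, a 2.15-fold difference by the means.

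ZNF529-AS1, inside a zinc finger gene, had 33.1, 33.7 and 26.6 normalized counts with GDF15 and 16.6, 18 and 19 without, and its groups lay well apart. ADNP-AS1, which starts beside a homeobox gene, had 26.9, 51.7 and 31 with GDF15 and 13.5, 26.5 and 19.8 without. Its untreated replicate 2 lay just under its GDF15 replicate 1, and GDF15 replicate 2 stood above the rest. Leaving that library out took the log2 ratio from 0.87 to 0.54. FUT8-AS1, inside the gene of the enzyme that adds core fucose to glycoproteins, had 59.999, 30.3 and 23.3 with GDF15 and 19.7, 17.1 and 23.8 without. Its groups overlapped, GDF15 replicate 1 stood above the other libraries, and leaving it out took the log2 ratio from 0.91 to 0.41. FUT8-AS1 shares 54.2% of its exonic bases with FUT8.

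Antisense-named members listed as lower were BDNF-AS, LMO7-AS1, PPP3CB-AS1 and WDFY3-AS2. BDNF-AS (ENSG00000245573, chromosome 11, 27506838 to 27698174, plus strand), known to hold down the neurotrophin gene BDNF that it covers, had 16.6, 15.7 and 15.5 normalized counts with GDF15 and 28, 34.1 and 26.9 without. The GDF15 libraries lay close together and all below the untreated ones. Means were 15.9 ± 0.546 and 29.7 ± 3.88 (SD, n = 3), 1.86-fold apart, and the log2 ratio was between -0.96 and -0.79 whichever library was left out. LMO7-AS1, whose promoter is printed above, had 11.4, 11.2 and 18.8 with GDF15 and 30.1, 25.6 and 23 without, without overlap, a 1.9-fold difference. PPP3CB-AS1 overlaps PPP3CB, the gene of a calcineurin catalytic subunit, and USP54, both on the other strand. It shares 27.1% of its exonic bases with genes on that strand. PPP3CB-AS1 had 72.4, 93.2 and 88.7 with GDF15 and 95.4, 139 and 127 without. GDF15 replicate 2 and untreated replicate 1 nearly met, and the log2 ratio of -0.51 had the smallest size of all 49 members. WDFY3-AS2, on the other strand of the gene of an autophagy adaptor, had 15.5, 23.6 and 32.1 with GDF15 and 38.4, 55 and 30.9 without. Its groups overlapped, since GDF15 replicate 3 was above untreated replicate 3.

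None of the 11 genes that the antisense names point to was listed, HIF1A, BDNF and FUT8 among them, so no antisense transcript could be set beside its named sense partner. Counting clone-named members too, 25 members had a protein-coding gene on the other strand, 31 genes in all, and 0 of these were listed. The values of these partner genes were not analysed here. The use of strand in counting is not given in the sources used here, and without it reads of the bases that 2 genes share cannot be assigned. By GENCODE exons, 27 members shared bases with another gene on either strand and 22 shared none. Those sharing none were 10 higher and 12 lower. A protein-coding gene on the same strand lay over 7 members. AC092718.4 and AC108704.2 are among these and shared no exonic base. If unspliced RNA of such a gene adds reads to the member was not tested. At least 50% of the exonic bases were shared in 4 members, AL121845.3, AC109460.3, AP002807.1 and FUT8-AS1, and all 4 were listed as higher. Without these 4 the median log2 ratio of higher members was 0.95, as with them.

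**Figure D3:**
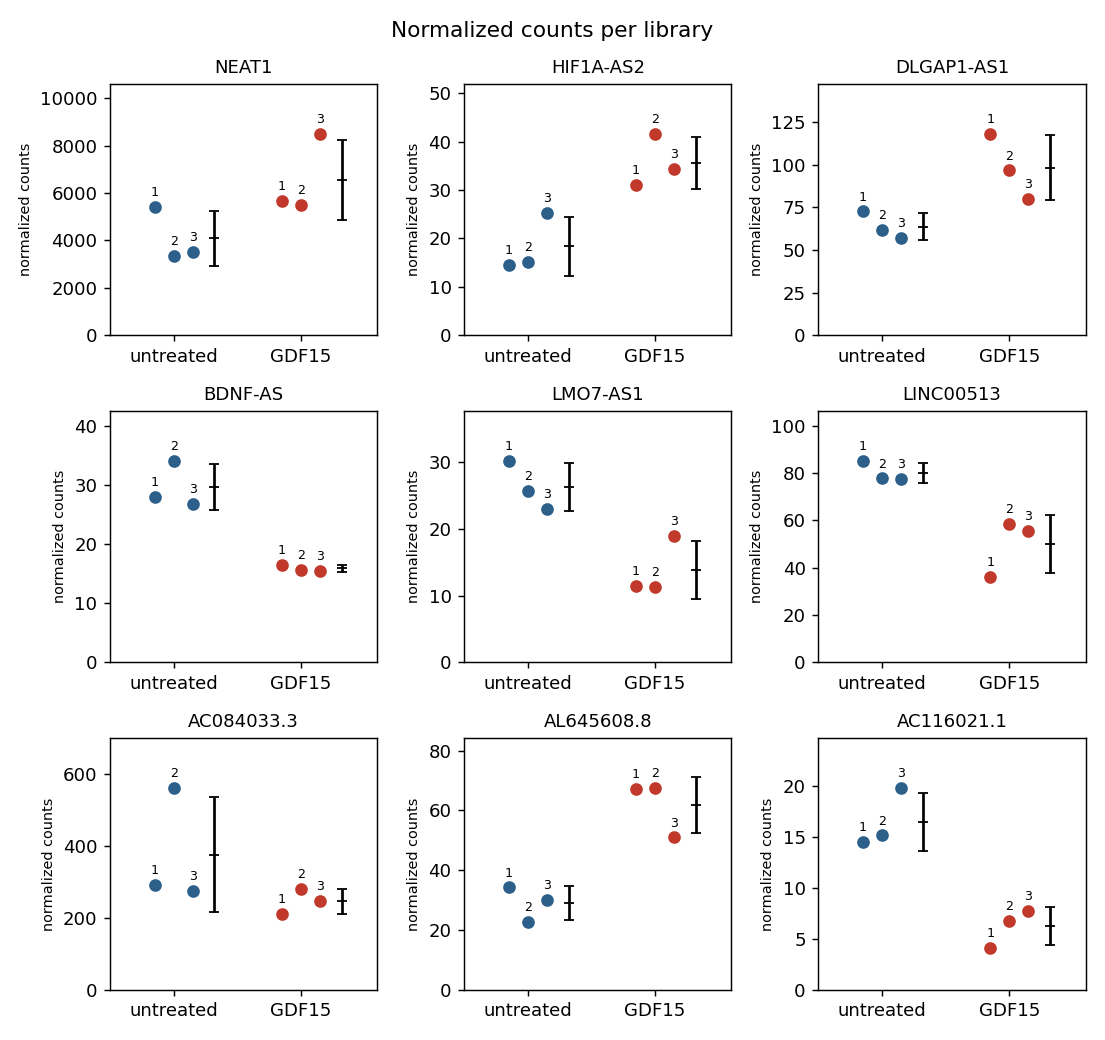
Normalized counts of 9 members in each library, points numbered by replicate, with the group mean and SD (n = 3) as a bar beside them. The 9 members were picked for display. In 8 of the 9 panels the groups do not overlap, as in 39 of all 49 members. The same holds for 67.8% of all listed features, which were all selected on this contrast. In AC084033.3 untreated replicate 3 lies below GDF15 replicate 2.

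The LINC members with the highest levels were both listed as lower with overlapping groups. LINC01638 (ENSG00000233521, chromosome 22, 27221349 to 27224727, minus strand) had 138, 104 and 114 normalized counts with GDF15 and 121, 190.5 and 198 without. GDF15 replicate 1 exceeded untreated replicate 1. LINC00467 (ENSG00000153363, chromosome 1, 211382803 to 211435333, plus strand) had 84.8, 60.7 and 92 with GDF15 and 84, 216 and 105 without. Untreated replicate 2 stood above the other libraries, and the log2 ratio of means went from -0.77 to -0.26 without it. LINC02550 had 11.4, 15.7 and 21.1 with GDF15 and 25.9, 36 and 26.1 without, without overlap, a 1.83-fold difference.

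LINC00513 and LINC02104 were listed as lower too. For LINC00513 the libraries held 36.2, 58.4 and 55.4 normalized counts with GDF15 and 85, 77.7 and 77.6 without. The untreated libraries lay close together and well above the GDF15 ones, a 1.6-fold difference by the means. LINC02104, whose promoter is printed above, held 44.5, 67.4 and 61 with GDF15 and 79.8, 162 and 69.7 without. Untreated replicate 2 was above the other untreated libraries, and the log2 ratio went from -0.85 to -0.38 without it. Of the 2 higher LINC members, LINC00943 had 103, 58.4 and 48.8 with GDF15 and 46.7, 28.4 and 38 without. GDF15 replicate 1 was its highest library, and the log2 ratio went from 0.90 to 0.51 without it. LINC00342 had 56.9, 96.6 and 116 with GDF15 and 60.1, 55.9 and 57.8 without, with overlap between groups, and went from 0.63 to 0.41 without GDF15 replicate 3.

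Clone-named members included those with the largest ratios in both directions. AL645608.8 (ENSG00000272512, chromosome 1, 995966 to 998051, minus strand), an intergenic RNA of a single exon, had 67.2, 67.4 and 51 normalized counts with GDF15 and 34.2, 22.7 and 30.1 without. Its GDF15 values were all well above the untreated ones, with means of 61.9 ± 9.43 and 29 ± 5.81 (SD, n = 3), 2.13-fold apart. Its log2 ratio stayed between 0.94 and 1.23 whichever library was left out. AC108704.2, a single-exon gene within SLC15A4 on the same strand, was near the lowest level of the members with 9.31, 20.2 and 19.95 with GDF15 and 10.4, 5.69 and 5.54 without, and its groups overlapped.

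Of the 3 higher clone-named members with the highest levels, AC018638.4, a processed pseudogene, had 203, 146 and 163 normalized counts with GDF15 and 135, 26.5 and 105 without. Untreated replicate 2 was below all other libraries, and the log2 ratio was 0.94 with it and 0.51 without it. AP002807.1 had 113, 107 and 167 with GDF15 and 77.8, 34.1 and 88.7 without, without overlap, and its log2 ratio went from 0.95 to 0.63 without untreated replicate 2. AC046185.3, which starts beside LIMD2, had 101, 84.3 and 106 with GDF15 and 61.2, 57.8 and 80.8 without, likewise without overlap. FP565260.3, typed as protein-coding, had 84.8, 36 and 27.7 with GDF15 and 30.1, 9.48 and 16.6 without. GDF15 replicate 1 stood above all others, GDF15 replicate 3 lay below untreated replicate 1, and the log2 ratio went from 1.40 to 0.77 without GDF15 replicate 1. AL449212.1, a pseudogene of IFT122, had 15.5, 16.9 and 23.3 with GDF15 and 11.4, 8.53 and 5.54 without, without overlap. AL031846.2, on the other strand of the Polycomb gene CBX7, had 26.9, 14.6 and 32.1 with GDF15 and 17.6, 10.4 and 9.5 without, and its GDF15 replicate 2 lay below untreated replicate 1. Reads of pseudogenes can be shared with their parent genes, so these values are uncertain.

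On the lower side, AC116021.1 (ENSG00000254639, chromosome 11, 46238382 to 46239267, plus strand), an intergenic RNA, had 4.14, 6.74 and 7.76 normalized counts with GDF15 and 14.5, 15.2 and 19.8 without. All GDF15 values lay below all untreated ones, a 2.65-fold difference, at the lowest level of the 49 members. AC087477.2 had 18.6, 21.3 and 8.87 with GDF15 and 24.9, 58.8 and 25.3 without, without overlap, but untreated replicate 2 was above the other untreated libraries and the log2 ratio went from -1.16 to -0.63 without it. AC004067.1, on the other strand of the caspase gene CASP6, had 21.7, 18 and 17.7 with GDF15 and 25.9, 53.1 and 31.7 without. AC138207.2, the host gene of miR-4733, overlaps the tumour suppressor gene NF1 on the other strand. It shares 29.1% of its exonic bases with genes on that strand. AC138207.2 had 21.7, 16.9 and 16.6 with GDF15 and 25.9, 48.3 and 27.7 without. Neither overlapped between groups, and untreated replicate 2 held the highest value of both. Without that library the log2 ratio went from -0.95 to -0.59 for AC004067.1 and from -0.89 to -0.54 for AC138207.2.

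Among the lower clone-named members of highest level, untreated replicate 2 was the highest library. AC084033.3 (ENSG00000257698, chromosome 12, 57931528 to 57936175, minus strand), now GIHCG, an RNA named for its increase during liver carcinogenesis, had 210.00, 279.7 and 246 normalized counts with GDF15 and 290.3, 560.04 and 276 without. Untreated replicate 2 stood above all others, the remaining untreated values lay near the GDF15 ones, and the log2 ratio of means went from -0.61 to -0.21 without it. AC007388.1, now MAP4K3-DT, which starts beside a kinase gene and runs away from it, had 72.4, 89.9 and 75.4 with GDF15 and 102, 166 and 99 without, with -0.62 and -0.34 on the same scale. AC092718.4, inside the centromere protein gene CENPN on the same strand, had 107, 127 and 101 with GDF15 and 133, 210.4 and 143 without, with -0.54 and -0.31. A further 18 members were neither antisense-named nor among the highest or most different ones. Of these, 13 were higher, with log2 ratios from 0.57 to 1.05, and 5 were lower, with ratios from -0.85 to -0.63. Groups did not overlap for 16 of the 18, against 67.8% of all listed features, which were all selected on this contrast. Those given no library values here were AC006058.4, AC008735.2, AC008894.3, AC025165.1, AC109460.3, AC110285.2, AC135983.2, AC018638.1, AL121845.3 and AC241585.2, all higher, and AC021054.1, AC023632.6 and AL513165.1, all lower. The log2 ratio of AC023632.6 went from -0.64 to -0.37 and that of AC241585.2 from 0.78 to 0.46 without untreated replicate 2.

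In 5 places a member lay within 50 kb of another listed feature, and both were higher in each. Of all 453 features, which were all selected on this contrast, 60.5% were listed as higher. A link between neighbours was not tested. AP002807.1 (ENSG00000255031, chromosome 11, 68050740 to 68053762, plus strand) overlaps the last 156 bases of TCIRG1, the gene of a proton pump subunit, on the same strand, and runs against the choline kinase gene CHKA. TCIRG1 had 1929, 1950.4 and 2272 normalized counts with GDF15 and 1539.7, 1258 and 1615 without, and the log2 ratio of means was 0.48 for TCIRG1 and 0.95 for AP002807.1. Both were lowest in untreated replicate 2 and highest in GDF15 replicate 3. Their exons share 155 bases, which strand cannot resolve, as both genes are on the plus strand.

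AC116366.1 (ENSG00000234290, chromosome 5, 132468890 to 132473043, minus strand) lies 8566 bases from IRF1, the gene of an interferon-induced transcription factor. AC116366.1 had 61, 34.8 and 33.3 normalized counts with GDF15 and 24.9, 24.6 and 23 without, and IRF1 had 5255, 2449 and 2261 with GDF15 and 2230.2, 1978 and 1803 without. GDF15 replicate 1 stood above the rest for both, and without it the log2 ratio went from 0.83 to 0.49 for AC116366.1 and from 0.73 to 0.23 for IRF1. The processed pseudogenes AC018638.1 and AC018638.4 lie 1356 bases apart on opposite strands of chromosome 7, and both were lowest in untreated replicate 2. AL121845.3, which overlaps ZGPAT and LIME1, lies 12611 bases from the telomere helicase gene RTEL1, with log2 ratios of 0.65 and 0.53. AL645608.8 lies 30251 bases from KLHL17, with 1.09 and 0.54. KLHL17 was highest in GDF15 replicate 3, where AL645608.8 had its lowest GDF15 value.

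**Figure D4:**
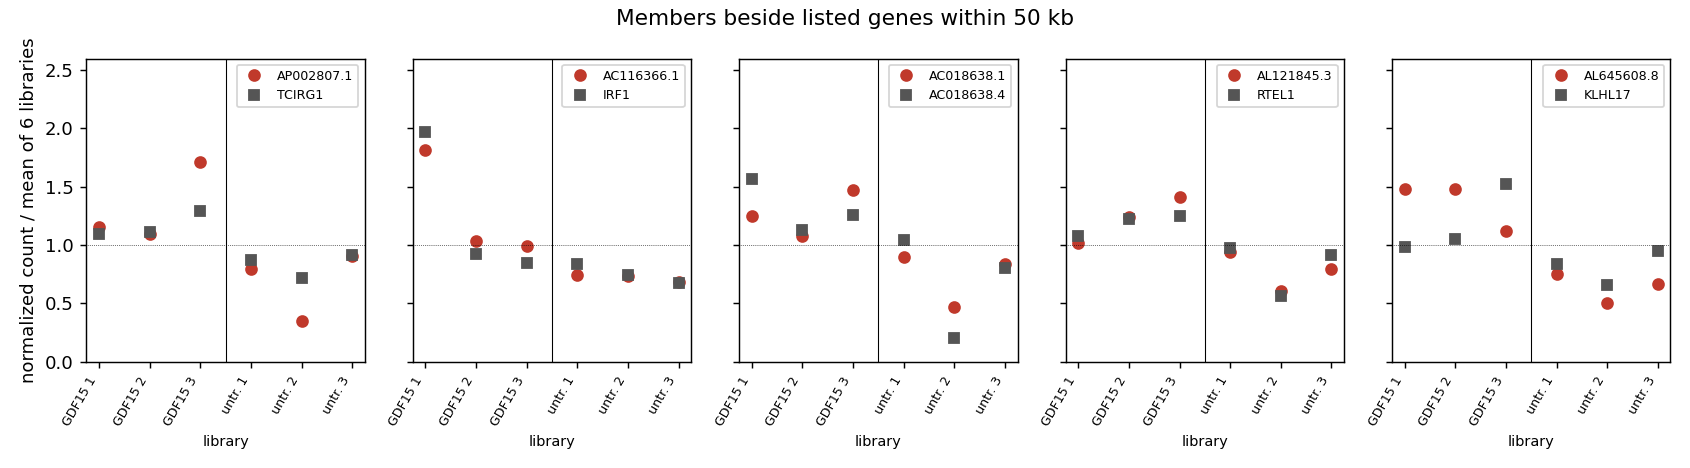
Each panel sets a member (circles) beside the listed feature within 50 kb (squares), as normalized count over the feature's mean of 6 libraries, for the 3 GDF15 and 3 untreated (untr.) libraries. AC116366.1 and IRF1 are both highest in GDF15 replicate 1, and the other pairs do not have that library highest in both.

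Among 30 higher members, 16 (53.3%) had their highest value in GDF15 replicate 3 and 7 each (23.3%) in GDF15 replicates 1 and 2. Over all 274 higher features GDF15 replicate 1 was highest in 65.7% and GDF15 replicate 3 in 25.9%. Among higher features outside the rule with a mean under 50 normalized counts, GDF15 replicate 1 was highest in 66.7%, against 15.0% of the higher members under that level. Dropping GDF15 replicate 1 took the higher members' median log2 ratio from 0.95 to 0.89, and that of all higher features from 0.70 to 0.48. These are shares within 1 set of libraries, and no test of the difference was made.

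Untreated replicate 2 was the library with the most extreme values among members as in the list. It was lowest in 18 of 30 higher members and highest in 14 of 19 lower ones (73.7% of them), against 67.5% and 86.0% of all higher and lower features. Without it the median log2 ratio of lower members went from -0.77 to -0.54 and that of higher members from 0.95 to 0.80. Over all listed features the medians went from -0.59 to -0.34 and from 0.70 to 0.56. The log2 ratio shrank by more than 1.5 times in 9 of 19 lower and 3 of 30 higher members. Among all listed features it did so in 101 of 179 lower and 39 of 274 higher ones. Without GDF15 replicate 1 alone it did so in 4 of 30 higher and 0 of 19 lower members. Over all listed features that was 109 of 274 higher and 2 of 179 lower ones. With GDF15 replicate 1 and untreated replicate 2 both left out, the members' medians were 0.75 and -0.51, and all 49 members had their listed direction. The 39 members without overlap between groups cannot turn when libraries are left out, so that count is no sign of stability. The spike-in ERCC-00157, which no cell makes, was listed as lower as well, with 19.7, 18 and 13.3 normalized counts in GDF15 libraries and 29, 38.9 and 26.9 in untreated ones, highest in untreated replicate 2. Its part in the result was not tested.

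**Figure D5:**
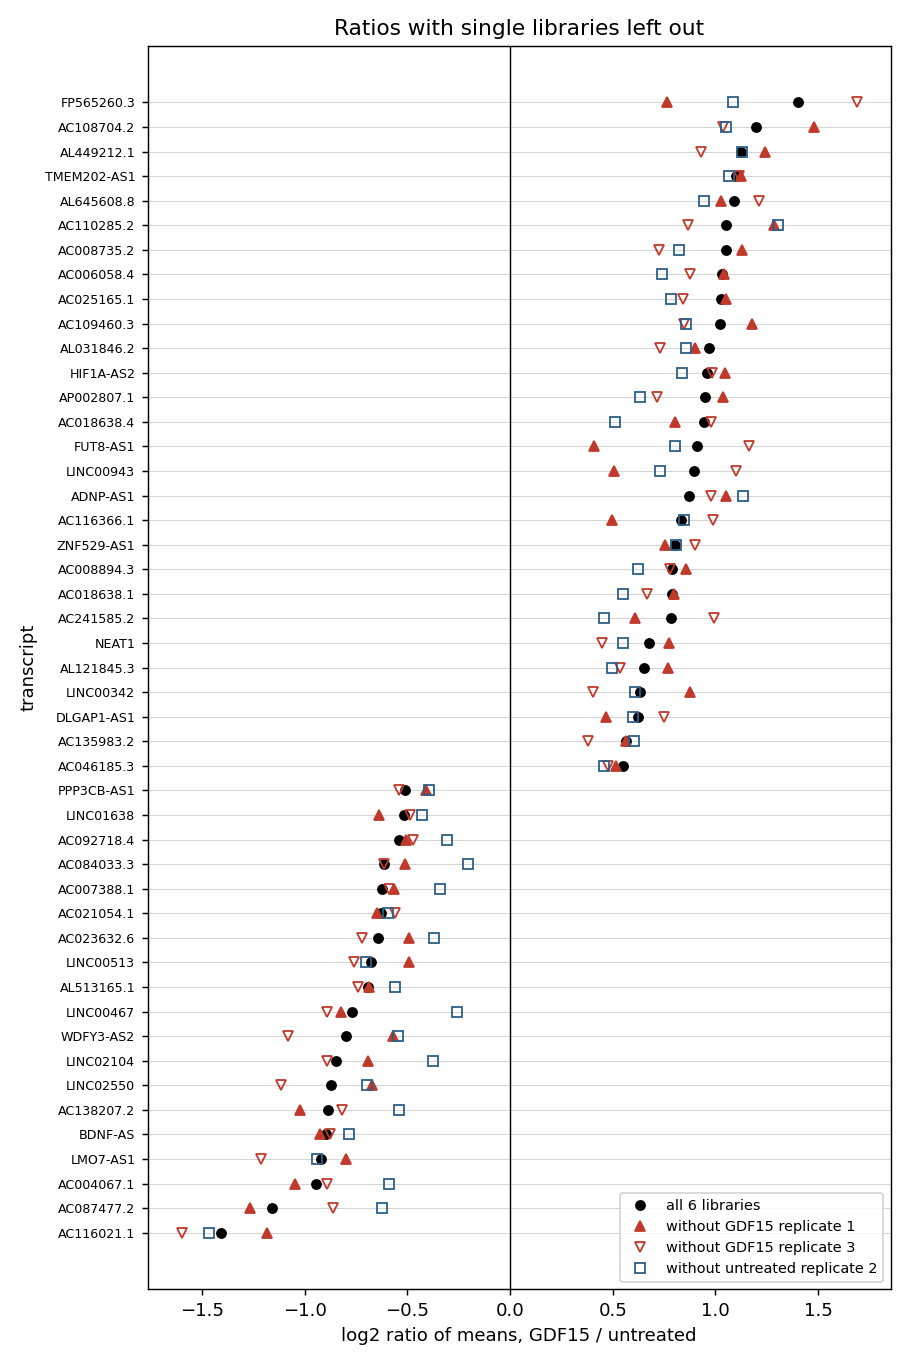
Log2 ratio of group means, GDF15 over untreated, for 47 of the members with all libraries (filled circles) and with GDF15 replicate 1, GDF15 replicate 3 or untreated replicate 2 dropped. All values keep their side of 0, and among the squares nearest to it are AC084033.3 at -0.21 and LINC00467 at -0.26.

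All 3 same-numbered pairs of libraries were higher with GDF15 for 26 of the 49 members, and for 56.1% of all 453 features. They were lower for 16 of the 49 members, and for 35.1% of all 453 features. Among features listed as higher, this held for 26 of 30 members and 254 of 274 features, and among those listed as lower for 16 of 19 members and 159 of 179 features. Of 46 widely studied long non-coding and host gene RNAs, 3 were listed, all higher: HIF1A-AS2, MIR210HG and MEG3. MIR210HG, the host gene of the hypoxia-induced miR-210, had 254, 259.5 and 296 normalized counts with GDF15 and 221, 98.6 and 82.3 without, and its groups did not overlap, with untreated replicate 1 nearest to the GDF15 values. MEG3, an imprinted RNA with growth-restraining action, had 743, 727 and 1092 with GDF15 and 726, 399 and 614 without. Both were highest in GDF15 replicate 3. MEG3 was lowest in untreated replicate 2 and MIR210HG in untreated replicate 3. The others, MALAT1 and GAS5 among them, were not analysed here.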

How the data were processed

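Poly(A) RNA libraries of 3 GDF15-treated and 3 untreated LX2 samples were analysed. The submitters' processing notes list DESeq2, STAR 2.5.2b, Subread 1.5.2, Trimmomatic 0.36, featureCounts and the build GRCh38. Order, settings, annotation and strand were not given in the sources used here. The authors deposited 1 table with log2 fold change (GDF15 over untreated), unadjusted p-value and adjusted p-value, and a signal column per library, called normalized counts here. Within a deposited signal column every value was a whole multiple of 1 step (tolerance 0.001), and steps ran from 0.792 to 1.12 between columns. All listed features have an unadjusted p under 0.05, so full depth is unknown and no counting interval was given.

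Columns were matched to samples by library name, leaving 0 unmatched. Group means, SDs (n = 3) and ratios of means were computed with Python 3.11.15, pandas 2.3.3, numpy 2.4.6 and matplotlib 3.10.9; the largest gap to a deposited log2 fold change was 0.031. The code was tested on simulated data. No p-value was computed, because the members were selected on this contrast; an exact permutation test of 3 against 3 libraries cannot go below 0.10. Positions, types and exons come from GENCODE release 29, promoters from RefSeq. Genes named were NEAT1, antisense names, the 8 LINC and clone-named members with the highest mean, the 5 with the largest fold change each way, and the 2 with the largest p; this gave 31 members, of which 2 are not reported here, and others given with values (LINC00513, LINC02104, LINC00943, LINC00342, AC116366.1, AC018638.1, AL121845.3, AC023632.6, AC241585.2) and neighbouring genes were chosen after their values were seen. The members, lists and rules were chosen with earlier results of these data known.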

Additional observations from a re-analysis of the deposited data

How the results depend on the processing

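Under the alternatives run, the numbers of members in each direction (30 and 19) stayed within 1.5 times, and the medians of their log2 ratios (0.95 and -0.77) moved by less than the spread between libraries (0.29 and 0.33). Those were pseudocounts of 0.1, 1 and 5, means of at least 10 or 20, group medians and leaving out each library. Members were selected and split by direction on this same contrast, and 39 of them cannot turn when a library is left out. Counts at a minimum mean tell only how many members pass it. The numbers in each direction are therefore no sign of stability. The spread between libraries includes untreated replicate 2, whose omission moved both medians more than that of any other single library. That the medians moved by less than this spread is therefore no sign of stability either. With single libraries left out the medians ran from 0.80 to 1.02 for higher and from -0.92 to -0.54 for lower members. Among low members 8 higher and 1 lower had a mean under 20 normalized counts. With a replicate block (the mean of the 3 same-numbered log2 ratios) the medians were 0.93 and -0.70. The labels do not say what the numbers mark, so the numbers were not taken as pairs. Deviations of same-numbered libraries correlated at 0.11, 0.22 and -0.05 over the listed features. Those of differently numbered libraries correlated at -0.19 to 0.08. The features were selected on this contrast, so these values cannot decide if the numbers mark pairs. Restricting to members typed as non-coding RNA gave 0.96 and -0.77, dropping the 4 with at least 50% of exonic bases shared gave 0.95 and -0.77, and leaving out GDF15 replicate 1 and untreated replicate 2 gave 0.75 and -0.51; these 3 were chosen after seeing the data. The planned count tests (edgeR, DESeq2) were not run. Every value was a whole multiple of its library's step, but a separate check that takes the step from a column's smallest values did not accept whole reads as recovered, since the table holds few low values. No sense partner was listed for the planned leave-out values. For members under 20 normalized counts, few reads a library limit the precision of any ratio.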
